A study of Mus musculus with 16 samples.

Results

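The genes described here encode the secreted and membrane-bound proteases that cut the extracellular matrix, together with the inhibitors that block them. They were taken as all probes whose gene name is Mmp, Timp or Adamts followed by a number, which gave 71 of the 41174 probes on the array. These 71 probes read 42 genes, of which 21 are Mmp, 17 Adamts and 4 Timp genes. Tests were run on probes that at least 1 of the 16 arrays measured well above background, which 57 member probes of 39 genes were. The other 14 probes, including every probe of Adamts13, Mmp20 and Mmp21, were at background throughout. All 28 probes that were well above background on all 16 arrays belong to 22 genes. A gene is represented below by its tested probe with the highest mean unless another probe is named.

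Matrix metalloproteinases (MMPs) and ADAMTS proteases are zinc enzymes made as inactive precursors, and fibroblasts are among their main sources. MMPs cut collagens, laminin and other matrix proteins, whereas ADAMTS proteases trim procollagens and aggregating proteoglycans such as versican and aggrecan. Tissue inhibitors of metalloproteinases (TIMPs) bind the active site of these enzymes. Reprogramming of a fibroblast to a pluripotent cell involves the loss of its mesenchymal genes.

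Each sample was hybridized to 1 array. Mouse embryonic fibroblasts (MEFs) from C57BL/6 mice, the starting cells, gave 1 array. The 2 embryonic stem (ES) cell lines were B6ES, from C57BL/6, and TT2, from C57BL/6 x CBA F1 mice. The retroviral iPS line 20D17, of C57BL/6 x DBA background, gave 1 array. 4 iHAC1-iPS clones (1-A3 and 1-B, 1-C3 and 1-D6) carry a human artificial chromosome, iHAC1, with 2 copies each of Klf4, c-Myc, Sox2 and Oct4. The second vector, iHAC2, adds 2 more Oct4 copies and a p53 knockdown and is carried by 4 iHAC2-iPS clones. Each of these gave an iHAC-free subclone that lost the vector, F-B1 from 2-B1, F-C5 from 2-C6, F-E4 from 2-E and F-N7 from 2-N. Values of a group are given below in this order of its clones where they are not named. All iHAC lines are C57BL/6, each line is a single clone, and the CAG promoter drives the factors. ES and iPS cells were grown on feeder layers of mitotically blocked MEFs, so fibroblast RNA can come from the feeders as well as from the clones. The feeders that the paper describes were from ICR mice, unlike the MEFs of the array. In whole-culture RNA, a smaller share of a cell type and less RNA per cell cannot be told apart.

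Across arrays, 54.2% to 65.8% of probes were well above background. The lowest level well above background was higher on the iHAC2-iPS arrays (log2 level -5.07 to -4.35) than on the ES arrays (-5.85 and -5.53), and dim probes are bounded accordingly below. A log2 level is the processed signal relative to the array's 75th percentile, so levels are set against each other only within a probe. The MEF, ES, 20D17 and iHAC1-iPS arrays were scanned in 1 session, and the iHAC2-iPS and iHAC-free arrays in another, so session and group cannot be told apart in any comparison across those sets. Within the first session both ES lines shared a slide with 1-D6 and 20D17, and the other 3 iHAC1-iPS clones shared a slide with MEF. Against their label as iPS cells, the iHAC1-iPS clones had Zfp42 at -5.88 to -3.48 and Esrrb at -7.73 to -3.22, where the ES lines had 2.89 and 5.18, and 2.83 and 3.07. Oct4 (Pou5f1), which the vector also carries, was at 6.32 to 6.67 in the same clones.

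**Figure D1:**
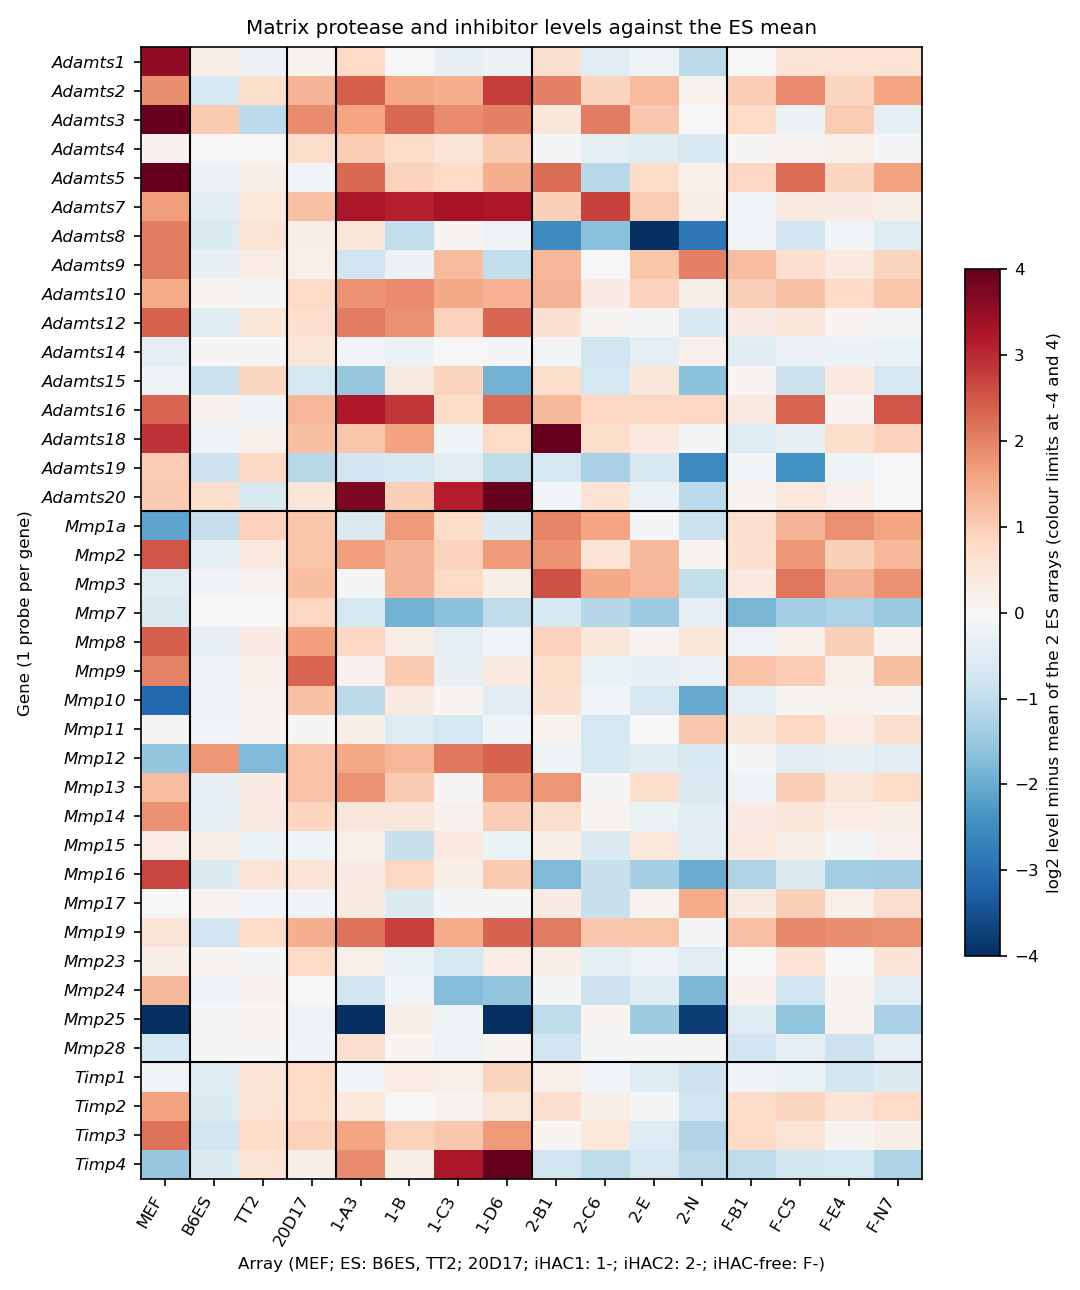
Heat map of the 39 tested genes (rows, 1 probe per gene) on the 16 arrays (columns), as log2 level minus the mean of the 2 ES arrays; red is above and blue below the ES mean. The Adamts block is mostly red in MEF and in the iHAC1-iPS clones, Adamts8 and Mmp16 are blue in the 4 iHAC2-iPS clones, and Mmp25 is deep blue in MEF, 1-A3, 1-D6 and 2-N.

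In MEFs most of the ADAMTS genes, but fewer of the MMP genes, stood above ES cells. With 1 MEF array there is no test, and a difference of at least 2-fold from the ES mean is only counted. Of the 57 member probes 34 were at least 2-fold higher in MEF (59.6%), against 20.6% of all tested probes, and 6 were at least 2-fold lower, against 22.2%. Under normexp background correction fewer member probes were 2-fold higher, as given in the closing section, without a share of all probes beside them. The median difference over members was 1.22 on the log2 scale, and over all tested probes it was -0.20. By gene, 13 of 16 Adamts genes, 7 of 19 Mmp genes and 2 of 4 Timp genes were at least 2-fold higher. Among them Adamts3, Adamts18, Adamts16 and Mmp8 were at background in both ES lines, so that only a bound holds. That bound was under 2-fold for Adamts16 (1.27) and Mmp8 (1.72). Mmp8 and a second Adamts5 probe were well above background on the MEF array alone and were tested only through it. Lower in MEF by that step were 4 Mmp genes and 1 Timp gene, with no Adamts gene among them. Of these Mmp12 and Mmp1a were at background in MEF and in 1 ES line each.

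Among the genes higher in MEF, Adamts5, an aggrecan-cutting protease, gave the widest gap, at 1.12 in MEF and at -4.49 and -4.01 in B6ES and TT2. Adamts1, which cuts versican, was at 2.48 in MEF against -0.83 and -1.31. Both genes were well above background on all 3 arrays, so these gaps of 41.3-fold and 11.7-fold are measured on each side. Adamts3, a procollagen N-propeptidase, was at -2.40 in MEF and not well above background in ES cells, which makes it at least 9.80-fold higher. Adamts18 was at -3.96 and at least 3.33-fold higher by the same bound. Mmp16, a membrane-anchored MMP, was at -1.22 in MEF against -4.43 and -3.33.

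Mmp2, gelatinase A, and Mmp14, the membrane-anchored MMP that activates its precursor, both stood higher in MEF. Mmp2 was at 3.15 in MEF, 0.26 in B6ES and 1.01 in TT2, and Mmp14 was at 5.67, 3.49 and 4.21. Mmp9, gelatinase B, was at -1.54 in MEF and at -3.71 and -3.33 in ES cells, and it was at -1.19 in 20D17, the highest of the 16 arrays. Among the inhibitors, Timp2 (6.97 against 4.81 and 5.93) and Timp3 (3.79 against 0.89 and 2.33) were higher in MEF. Timp1 was at 5.26 in MEF, between B6ES at 4.85 and TT2 at 5.88. MEF therefore exceeded both ES arrays for Timp2 and Timp3 and lay inside their range for Timp1.

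Several members ran the other way, with less signal in fibroblasts than in ES cells. Mmp25, a membrane-anchored MMP best known from leukocytes, was at -1.04 and -0.87 in ES cells and not well above background in MEF at -6.45, so that ES cells were at least 32.9-fold higher. Mmp10, stromelysin 2, was at 0.61 and 0.91 in ES cells against -2.34 in MEF, a gap of 8.57-fold. Timp4 was at -4.51 and -3.41 in ES cells and not well above background in MEF, which bounds it at 2.84-fold or more. Mmp3, stromelysin 1, was at 2.44 in MEF against 2.77 and 3.07, a difference under 2-fold. Both ES arrays were above the MEF array in each of these 4 genes.

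**Figure D2:**
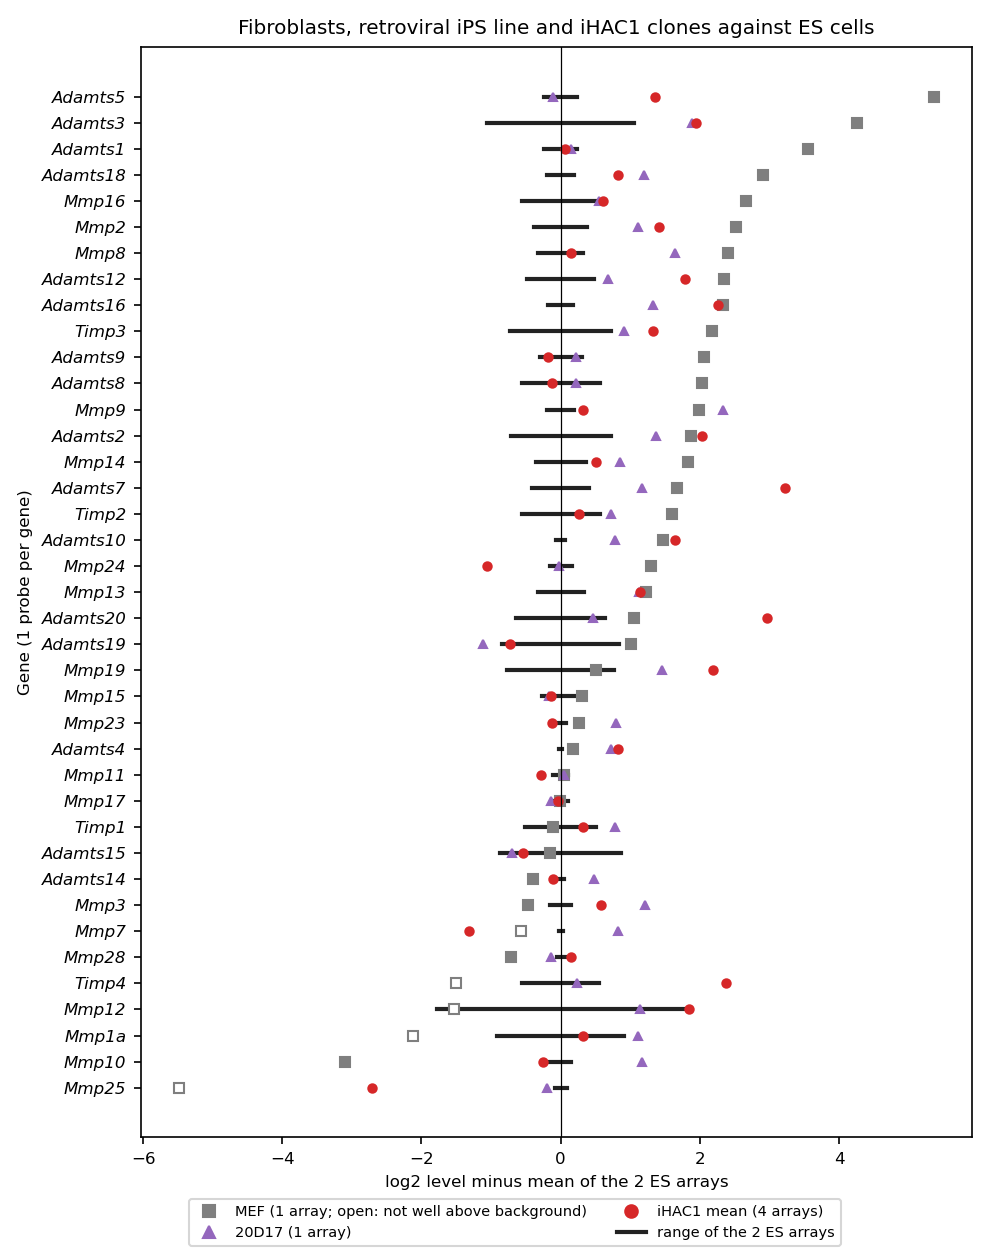
Level of each tested gene in MEF (squares, 1 array), 20D17 (triangles, 1 array) and the iHAC1-iPS clones (circles, mean of 4 arrays) as log2 difference from the mean of the 2 ES arrays, whose range is the black bar; open squares were not well above background. Genes are ordered by the MEF difference, from Adamts5 at 5.37 down to Mmp25, and the circles of Adamts7, Adamts20, Mmp19 and Timp4 lie to the right of their squares.

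The stromelysins belong to a run of MMP genes on mouse chromosome 9. In mm9, the probes of 8 member genes (Mmp13, Mmp12, Mmp1a, Mmp3, Mmp10, Mmp8, Mmp20 and Mmp7) lie between 7282762 and 7697700, a span of 415 kb. RefSeq promoter windows (GRCm38.p6, 250 bases before to 50 bases after a gene's start) were at hand for 29 of the 42 genes. The AP-1 motif, TGACTCA read on both strands and thus also TGAGTCA, was in a window of 6 of the 8 genes of this run (75%) and in none of the other 21 member genes. Of all 32851 windows, 5.20% held it. AP-1 is the Fos and Jun dimer through which serum and growth factors raise collagenase and stromelysin genes. TATAAA stood in the 100 bases before the start in 6 of the 8 genes too, in 2 of the other 21, and in 3.80% of all windows.

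The 100 bases before the start are shown for the 5 genes of the run with both motifs, because this is what they share and the rest of the family lacks in these windows. Capitals mark the AP-1 motif and TATAAA, and all are on the plus strand of chromosome 9. Only the window of the first listed start is shown. The sixth gene with the AP-1 motif, Mmp12, has it 44 bases before a second start.
Mmp13, chr9:7272414-7272513: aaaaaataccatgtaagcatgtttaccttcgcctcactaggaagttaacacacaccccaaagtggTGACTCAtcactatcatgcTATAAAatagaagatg
Mmp3, chr9:7445722-7445821: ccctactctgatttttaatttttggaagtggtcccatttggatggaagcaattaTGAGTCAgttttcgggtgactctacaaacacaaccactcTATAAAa
Mmp1a, chr9:7464041-7464140: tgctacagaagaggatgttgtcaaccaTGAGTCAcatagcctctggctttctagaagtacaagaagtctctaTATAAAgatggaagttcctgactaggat
Mmp10, chr9:7502242-7502341: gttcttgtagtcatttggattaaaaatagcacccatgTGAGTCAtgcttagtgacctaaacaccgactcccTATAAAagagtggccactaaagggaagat
Mmp7, chr9:7691990-7692089: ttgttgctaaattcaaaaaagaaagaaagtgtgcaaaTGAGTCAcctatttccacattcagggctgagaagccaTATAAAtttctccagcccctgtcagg

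A shared motif did not go with a shared level in fibroblasts. Mmp13, collagenase 3, was at -0.72 in MEF, above B6ES at -2.27 and TT2 at -1.61, whereas Mmp10 was lower there. Mmp1a was not well above background in MEF or in B6ES. Mmp7 was well above background only on the 20D17 array. In 20D17 the levels of Mmp3 (4.13), Mmp10 (1.93), Mmp13 (-0.82), Mmp1a (-4.86) and Mmp7 (-4.69) were all above both ES arrays. Among the AP-1 factors, Jun was at 3.05 in MEF, -0.26 in B6ES and 0.49 in TT2, and Fos was at -0.40, -3.75 and -3.18. Of the 9 AP-1 and Ets factors listed none passed the test between the iPS groups and ES cells, and the only call was Ets1, which was 1.64 higher on the log2 scale in iHAC1-iPS than in iHAC2-iPS clones.

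Between iHAC1-iPS clones and ES cells, ADAMTS proteases made up most of the change. A probe is called where the limma test across all 31415 tested probes gave an adjusted p under 0.05 and the difference was at least 2-fold. Of 57 member probes 15 were called (26.3%), against 14.3% of all tested probes. Higher in iHAC1-iPS were 14 probes of 10 genes, against 6.88% of all tested probes, and lower was 1 probe, against 7.39%. By family, 11 of 28 Adamts probes, 2 of 24 Mmp probes and 1 of 5 Timp probes were called higher. The median difference was 0.83 for Adamts probes, 0.21 for Mmp probes and 0.02 for all tested probes. The count of 15 fell to 7 without B6ES and to 9 without 1-A3. With a slide term the difference is that of 1-D6 alone, because no other iHAC1-iPS clone shared the slide of the ES lines. The lead probes of Adamts2, Adamts3, Adamts10, Adamts16, Mmp2, Mmp7 and Mmp19 were not called in that fit. Their differences there were 2.77, 2.01, 1.38, 2.28, 1.72, -1.03 and 2.37 in that order. Such a fit cannot test the 4 clones together.

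Adamts7, a protease of cartilage matrix and of the vessel wall, showed the clearest change. Its level was 1.68 in 1-A3, 1.53 in 1-B, 1.70 in 1-C3 and 1.66 in 1-D6, against -1.99 in B6ES and -1.18 in TT2. The 4 clones lay close together and above every other array of the series, MEF included at 0.08. Adamts7 was thus 9.38-fold higher than in ES cells (log2 difference 3.23 ± 0.49 SE, adjusted p = 0.00121). A second probe gave 3.60 ± 0.56 (adjusted p = 0.00138), and both probes read mm9 chromosome 9, at 90094702-90094761 and 90094876-90094935.

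Adamts20, a versican-cutting protease needed by melanoblasts, rose in iHAC1-iPS clones to different degrees. It was at -1.97 in 1-A3, -2.56 in 1-C3 and -1.68 in 1-D6, but at -4.77 in 1-B, while B6ES was at -5.08 and TT2 at -6.35. The clone 1-B was therefore close to B6ES and the other 3 clones far above it. The difference was 2.97 ± 0.71 on the log2 scale (adjusted p = 0.0126), and MEF was at -4.66, below those 3 clones. TT2 was not well above background, and without it the difference was 2.34 and not called (adjusted p = 0.12).

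Adamts12 and Adamts2 rose with less separation. Adamts12 was at -1.72, -1.93, -2.83 and -1.42 in the 4 clones against -4.24 and -3.28 in ES cells, a rise of 1.78 ± 0.41 (adjusted p = 0.0103). It was not called without B6ES (1.30, adjusted p = 0.154) or under normexp background correction (0.95). A second, dimmer Adamts12 probe was not called and correlated with the first by only r = 0.06 over the 16 arrays, most of which it read at background. Adamts2, the main procollagen I N-propeptidase, was at 2.81, 1.97, 1.82 and 3.18 against -0.30 in B6ES and 1.13 in TT2, a rise of 2.03 ± 0.56 (adjusted p = 0.0232). Without B6ES the Adamts2 rise was 1.31 and was no longer called, and it also lost its call without 1-A3 and without 1-D6.

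Adamts10, a partner of fibrillin microfibrils, rose by 1.64 ± 0.28 (adjusted p = 0.00229), from -3.14 and -3.27 in ES cells to between -1.82 and -1.31. The lead probe lost its call with a slide term, which sets 1-D6 alone against the ES lines, at a difference of 1.38. The second, dimmer probe did so too, at 0.605, and also without B6ES, TT2 or 1-A3. Adamts3 and Adamts16 were called as well (adjusted p = 0.0477 and 0.0469). Neither was well above background in ES cells, so the measured change is at least 1.97-fold for Adamts3 and at least 1.21-fold for Adamts16. Adamts3 kept its call under 3 of 13 alternatives, losing it without TT2 or any iHAC1-iPS clone. Adamts16 kept it under 4 of 13, losing it without B6ES, TT2, 1-A3, 1-B or 1-D6.

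Among MMPs, Mmp19 and Mmp2 were called higher. Mmp19, a widely expressed secreted MMP, was at -2.54, -1.98, -3.25 and -2.35 in the clones against -5.49 and -3.96 in ES cells (2.20 ± 0.55, adjusted p = 0.0149). Mmp2 was at 2.32, 1.99, 1.55 and 2.35 against 0.26 and 1.01 (1.42 ± 0.46, adjusted p = 0.0448). In neither gene did the 4 clones overlap the ES lines, and the gap between 1-C3 and TT2 was the narrowest. B6ES was not well above background for Mmp19, and without it the difference was 1.43 and not called. Mmp2 lost its call without B6ES, without TT2, and without 1-A3, 1-B or 1-D6. The probe called lower was that of Mmp7, matrilysin, which was not well above background on any array of either group, so that it gives neither a fold nor a measured direction.

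Of the inhibitors, Timp4, which is most abundant in heart and brain, was the only gene called. It was at -2.07 in 1-A3, -3.68 in 1-B, -0.68 in 1-C3 and 0.09 in 1-D6, against -4.51 in B6ES and -3.41 in TT2. The clone 1-B lay between the ES lines, and the difference of 2.38 ± 0.76 (adjusted p = 0.0433) lost its call without B6ES, without TT2, and without any of the clones 1-A3, 1-C3 and 1-D6. Timp3, which stays bound to the matrix, was at 3.20, 2.54, 2.70 and 3.32 against 0.89 and 2.33 and did not pass (1.33 ± 0.46, adjusted p = 0.0607). Timp1 and Timp2 differed by 0.32 and 0.27, within the spread of the ES lines.

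**Figure D3:**
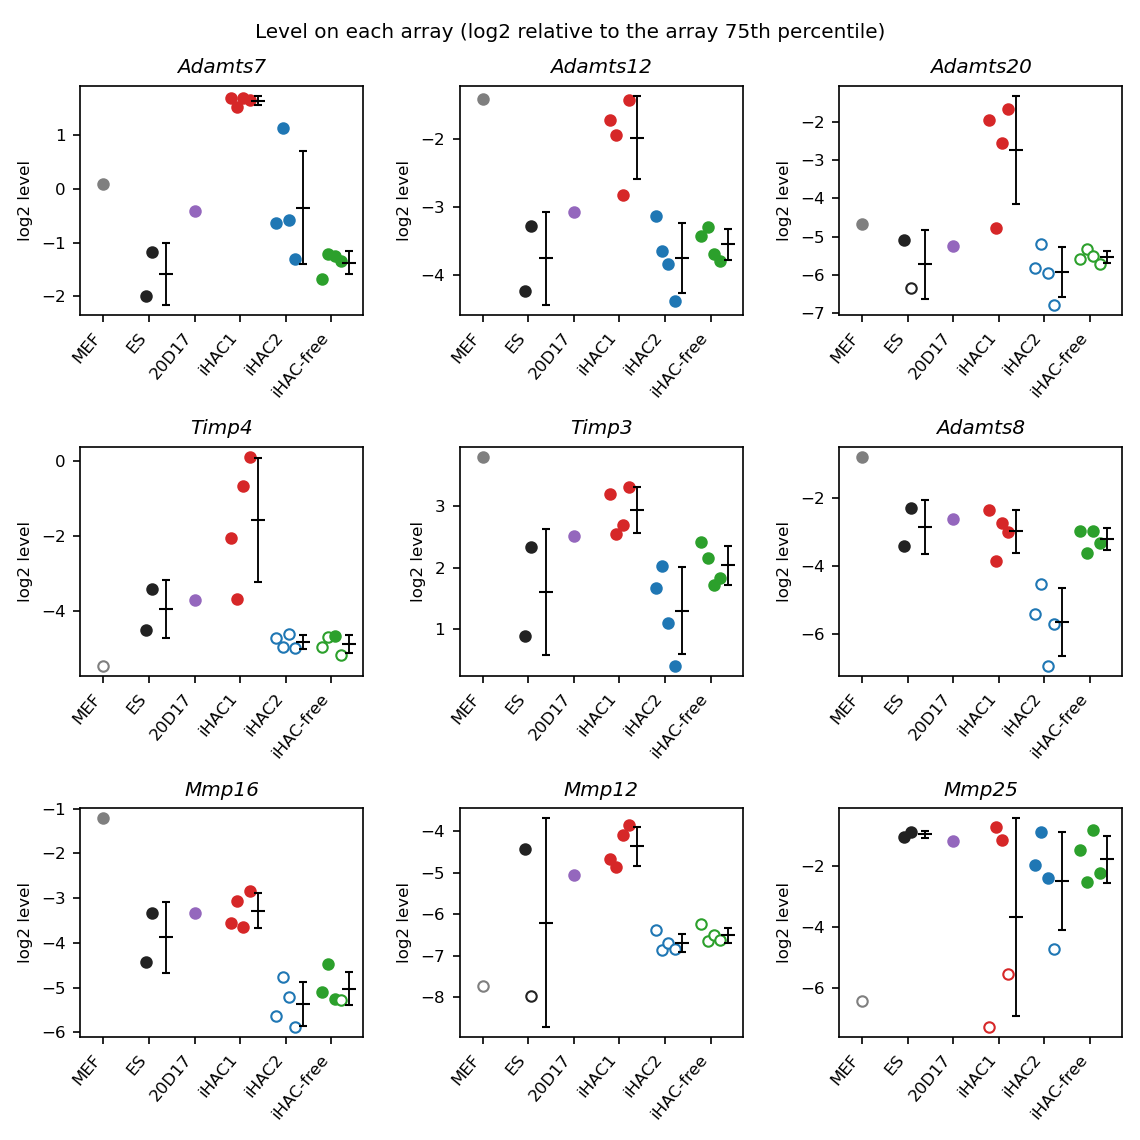
Log2 level of 9 member genes on each array, by group; filled points were well above background and open points were not, and bars to the right of groups with 2 or 4 arrays give mean ± SD. The 4 iHAC1-iPS points lie above all others for Adamts7, whereas for Timp4 and Adamts20 the clone 1-B falls away, and the 4 iHAC2-iPS points of Adamts8 are open and lowest.

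The mean of the fibroblast markers moved the same way as most of these genes, but the markers did not move alike. The mean log2 level of 11 fibroblast markers was 2.20 to 3.03 in the iHAC1-iPS clones, 0.37 in B6ES and 1.70 in TT2, 1.74 to 2.54 in the iHAC-free lines and 3.51 in MEF. Of the 11 markers Pdgfrb, Fap, Col1a1 and Col1a2 were called higher in the iHAC1-iPS clones than in ES lines, none lower, and all 11 were above background in MEF. The part of fibroblast RNA in the member changes was not tested. Adamts7, Adamts20 and Mmp19 were higher on average in the iHAC1-iPS clones than on the MEF array, by 1.56, 1.91 and 1.69 on the log2 scale. Timp4, at background in MEF, was higher by at least 3.88. The feeders themselves were not measured. For Adamts2, Adamts10 and Adamts16 the clone mean was within 0.17 of MEF. On the slide that held 1-D6 and both ES lines, 1-D6 minus the ES mean was 3.25 for Adamts7, 4.05 for Timp4, 2.77 for Adamts2 and 2.34 for Adamts12.

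Fewer members were called between iHAC2-iPS clones and ES cells, a share near that of all tested probes. The calls, all downward, were of 2 genes not well above background in any iHAC2-iPS clone. Of 57 probes 3 were called (5.26%), against 6.73% of all tested probes in either direction and 3.27% in the downward direction. Both tested probes of Adamts8, an anti-angiogenic ADAMTS, were among them. Adamts8 was at -5.39 in 2-B1, -4.54 in 2-C6, -6.92 in 2-E and -5.69 in 2-N, not well above background in any, against -3.41 in B6ES and -2.29 in TT2. No iHAC2-iPS clone reached either ES line, and Adamts8 was at least 3.60-fold lower (adjusted p = 0.0149) by this probe and at least 2.04-fold lower (adjusted p = 0.0102) by the other. Mmp16 was at -5.64, -4.76, -5.20 and -5.87 in the clones, again not well above background, and at least 1.83-fold lower than in ES cells (adjusted p = 0.0318). The lead probes of both genes lost their calls without B6ES and without TT2, and Mmp16 did so without 2-B1 and without 2-E too. Both also lost them under normexp background correction. Over the alternatives the difference ran from -3.34 to -0.74 for Adamts8 and from -2.04 to -0.38 for Mmp16. The count of 3 became 0 without B6ES, 1 without TT2 and 6 without 2-N.

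Among the iHAC2-iPS clones, 2-C6 stood apart in Adamts7 and 2-N in many members. Adamts7 was at 1.14 in 2-C6, near the iHAC1-iPS level, and at -0.64, -0.57 and -1.32 in 2-B1, 2-E and 2-N. Of the 22 genes well above background on all 16 arrays, 2-N was the lowest of the 15 ES and iPS arrays for 10 and the highest for 3. The same count over all probes was not made, so it is not shown to be particular to these members. Mmp3 was at 1.95 in 2-N and at 5.47, 4.45 and 4.24 in 2-B1, 2-C6 and 2-E, and Timp3 was at 0.41 against 1.68, 2.03 and 1.10. The fibroblast marker mean was also lowest of the group in 2-N, at 0.83, and highest in 2-B1, at 2.74. Whether the low members of 2-N follow its fibroblast RNA was not tested.

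In the iHAC-free lines no member probe was called against ES cells, where 0.366% of all tested probes were called. At an unadjusted p under 0.05 there were 10 of 57, where 20.5% of all tested probes passed. The largest of these by gene was Mmp19, at -3.56, -2.81, -2.88 and -2.91, all above TT2 at -3.96. The iHAC-free lines were also the most alike, with a median SD over the 39 genes of 0.32, against 0.53 for iHAC1-iPS and 0.71 for iHAC2-iPS. Mmp14 illustrates this, at 4.17, 4.30, 4.14 and 4.10. The median SD over all tested probes was not taken, so the smaller spread is not shown to be particular to these genes. Some of the 39 genes were at background in a whole group, as Adamts8 was in iHAC2-iPS.

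Adamts8 separated the iHAC2-iPS clones from their own vector-free subclones. It was at -2.96 in F-B1, -3.63 in F-C5, -2.96 in F-E4 and -3.32 in F-N7, well above background in each. With each parent at the higher of its own signal and its array's lowest level well above background, the 4 subclones were above their parents by at least 1.38, 0.91, 2.11 and 1.51 on the log2 scale. Adamts8 was the only member called between these groups (1 of 57 probes, 1.75%, against 0.770% of all tested probes, or 0.554% in that direction), at least 2.79-fold lower in iHAC2-iPS (adjusted p = 0.0321). With the parent clone as a replicate block 0 member probes were called. The call was kept without 2-C6 and without 2-N and lost when any of the other 6 arrays was left out. It was also lost under normexp background correction, and over the alternatives the difference ran from -2.78 to -0.44. By the same bound iHAC-free lines were above iHAC2-iPS clones by at least 1.51 and 1.45 within the slides that hold both. The second Adamts8 probe was not called (adjusted p = 0.0565). The probe of the call lies at mm9 chromosome 9, 30770220-30770279.

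Compared with iHAC2-iPS clones, every call was higher in the iHAC1-iPS clones. Of 57 probes 13 were called (22.8%), all higher, against 20.0% of all tested probes in either direction and 8.68% in that direction. By family these were 9 of 28 Adamts, 2 of 24 Mmp and 2 of 5 Timp probes. These comparisons use the same iHAC1-iPS arrays as the comparison with ES cells, so they are not independent of it. They also cross the scanning sessions.

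Timp4 was not well above background in any iHAC2-iPS clone (-4.99 to -4.62), which puts iHAC1-iPS at least 8.35-fold above them (adjusted p = 0.00223). Adamts20 was at least 4.05-fold higher (adjusted p = 0.00175) and Adamts8 at least 3.29-fold (adjusted p = 0.00138). In Timp4 and Adamts8 every iHAC1-iPS clone was above the highest floor of the iHAC2-iPS arrays, at -4.35, whereas for Adamts20 the clone 1-B, at -4.77, was not. In iHAC1-iPS clones Mmp16 was at -3.55, -3.06, -3.65 and -2.84, which is 2.78-fold or more above the iHAC2-iPS clones (adjusted p = 0.000604). Mmp12, macrophage elastase, was at -4.66, -4.86, -4.09 and -3.84 and at least 1.32-fold higher (adjusted p = 0.00704).

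For the remaining genes other than Adamts2, every clone of both groups was well above background. Adamts7 was 3.98-fold higher (1.99 ± 0.40, adjusted p = 0.0031), although 2-C6, at 1.14, came near the lowest iHAC1-iPS clone at 1.53. Adamts12 was 3.43-fold higher (1.78 ± 0.34, adjusted p = 0.00208). Timp3 was 3.10-fold higher (1.63 ± 0.38, adjusted p = 0.0062), with the lowest iHAC1-iPS clone at 2.54 and the highest iHAC2-iPS clone at 2.03. Adamts4, an aggrecanase, differed by little more than 2-fold but with little spread, at -2.35 to -1.81 against -3.51 to -2.93 (1.22 ± 0.16, adjusted p = 0.000264). Adamts2 was called by 2 of its 4 tested probes, neither of them the brightest. These were well above background in 2 and in 3 of the 4 iHAC2-iPS clones. For 1 of these 2 probes the call was lost without 1-A3, 1-B, 1-D6, 2-C6, 2-E or 2-N. Under normexp the lead probes of Adamts8, Adamts4, Mmp12, Adamts12 and Mmp16 lost their calls, at differences of 0.58 to 0.98. Of the 11 fibroblast markers Pdgfrb and Col1a1 were called higher in iHAC1-iPS here, with a list median of 0.85 against -0.05 for all tested probes, and the list mean was 0.83 to 2.74 in the iHAC2-iPS clones. Of 5 macrophage markers Ptprc, Csf1r and Lyz2 were called higher and Cd68 lower. The part of either cell type in these differences was not tested.

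Against the iHAC-free lines, 8 probes were called higher in iHAC1-iPS and 1 lower, 9 of 57 (15.8%), against 20.1% of all tested probes, of which 8.86% were higher and 11.2% lower. Adamts7 was 8.12-fold higher (3.02 ± 0.40, adjusted p = 0.000228), with all iHAC-free lines between -1.68 and -1.22. Timp4 differed by 3.30 ± 0.62 (adjusted p = 0.00169) and Adamts12 by 1.58 ± 0.34 (adjusted p = 0.00345). Only 1 of the 4 iHAC-free lines had Timp4 well above background, so its difference rests in part on background signal. Adamts20 was at least 5.89-fold higher (adjusted p = 0.00314), Mmp12 at least 1.94-fold (adjusted p = 0.01) and Adamts3 at least 1.52-fold (adjusted p = 0.0275). Adamts3 lost this call without 1-B, 1-D6, F-C5 or F-N7, and Mmp12, Adamts3 and Mmp16 lost theirs under normexp. Mmp16, at -5.27 to -4.47 in the iHAC-free lines, was 3.35-fold lower there (adjusted p = 0.00136). The probe called lower in iHAC1-iPS was a dim one of Adamts19, at -7.51 to -6.62 and background in all 4 clones, and it reversed to 0.10 under normexp. The brighter Adamts19 probe was not called.

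**Figure D4:**
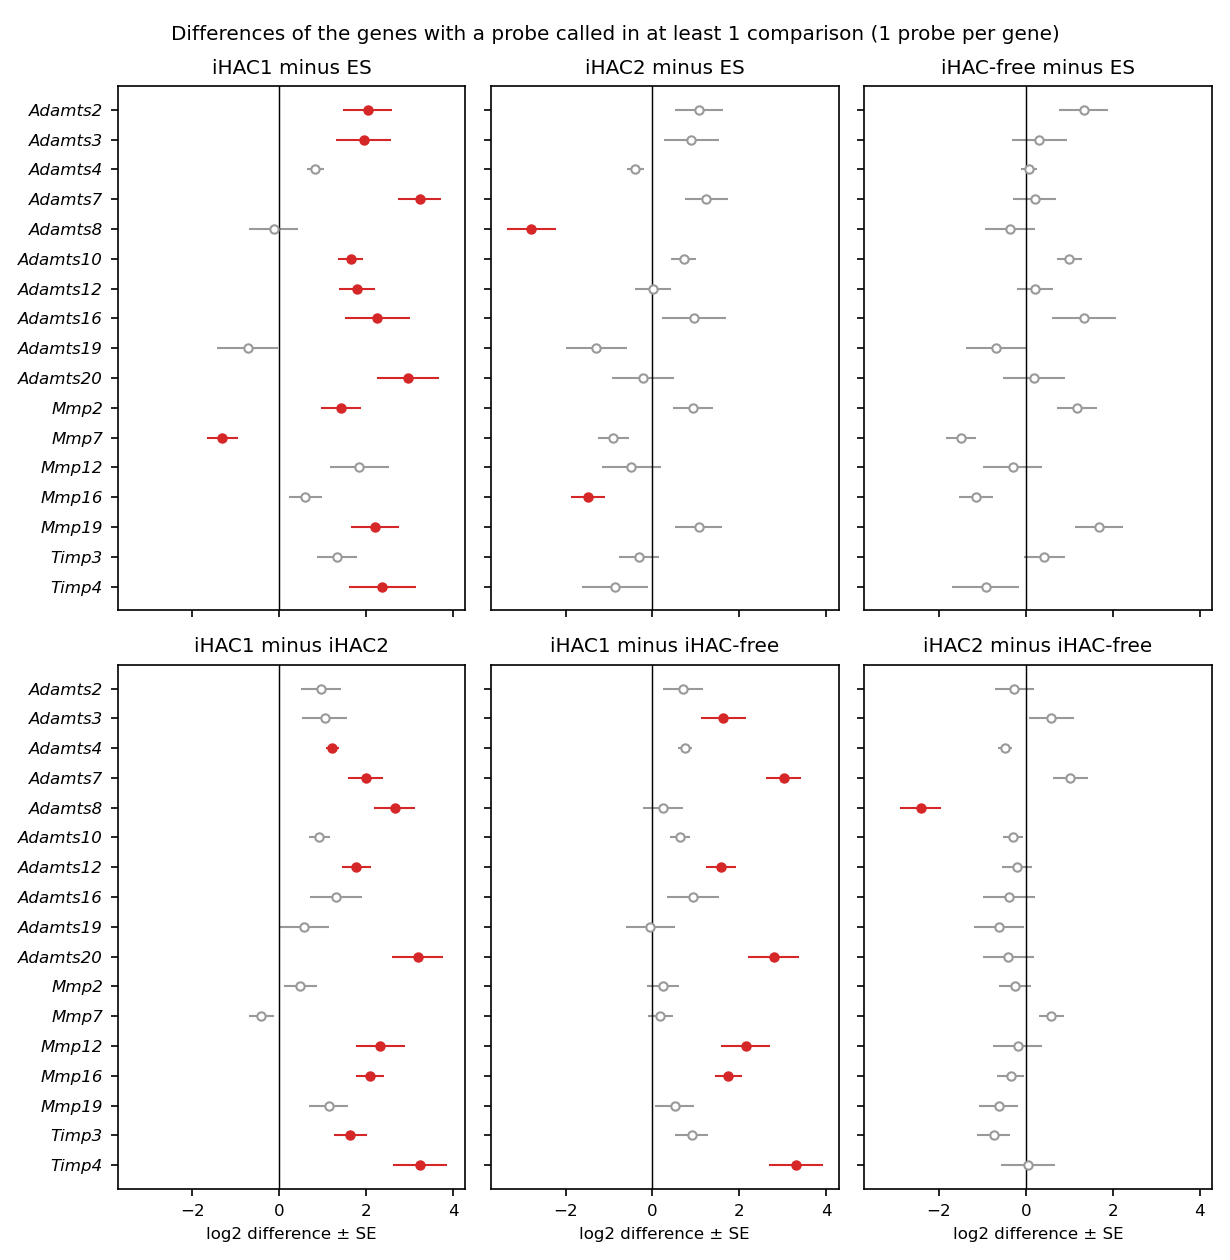
Log2 differences with SE of the 17 genes that have a called probe, in the 6 comparisons, by the brightest tested probe of each gene; red points were called. Red points lie to the right in the 3 panels of iHAC1-iPS except for Mmp7, and Adamts8 lies to the left in both panels that start from iHAC2-iPS, with Mmp16 beside it against ES cells; Adamts19 was called by another probe only, as was Adamts2 against iHAC2-iPS.

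Mmp25 divided clones of one group more than any other member. It was at -0.73 in 1-B and -1.15 in 1-C3, as in ES cells, but at -7.29 in 1-A3 and -5.54 in 1-D6, where it was not well above background. The iHAC1-iPS SD was 3.24, the largest of the 39 genes, and no comparison of Mmp25 passed the test. Among iHAC2-iPS clones it was at -1.96, -0.88 and -2.39 in 2-B1, 2-C6 and 2-E and not well above background in 2-N at -4.72, whereas F-N7, the subclone of 2-N, was at -2.24. The mean of 7 pluripotency markers was -2.59 in 1-A3 and -2.33 in 1-D6, against -0.79 in 1-B and 0.19 in 1-C3. In 2-N, where Mmp25 was also at background, it was 4.07, between the ES lines at 3.93 and 4.28. Dppa3, 1 of these markers, was lowest in 1-B, at -7.55. Oct4, which the vector also carries, was highest of the 4 clones in 1-D6 and 1-A3. Whether Mmp25 goes with these markers was not tested. The Mmp25 probe lies at mm9 chromosome 17, 23767090-23767149.

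Other genes of matrix proteolysis were read from lists of regulators and targets. In the list of plasminogen activators, their inhibitors and other regulators, 5 of 15 genes were called higher in the iHAC1-iPS clones than in ES lines and 1 lower, against 6.88% and 7.39% of all tested probes, with a median of 0.49 against 0.02. Pcsk5, a proprotein convertase, rose most (3.64 ± 0.74, adjusted p = 0.00516), followed by Thbs2 (2.28), Plat (1.70), Serpine2 (1.64) and Lrp1 (1.37), the scavenger receptor that clears many of these proteases. Plaur, the urokinase receptor, was the gene called lower. Reck, a membrane inhibitor of MMPs, was not called in any comparison.

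Among ADAMTS-like proteins and ADAMTS substrates, 2 of 16 genes were called higher in the same comparison and 4 lower, with a median of 0.47, against the same shares of all tested probes. The 2 were Fbn1 (1.63), fibrillin 1, and Adamtsl2, which was at background in both ES lines and is bounded at 0.56 or more, and the 4 were Vwf (-3.77), Comp (-2.48), Ncan (-1.67) and Acan (-1.32). At the RNA level aggrecan (Acan) and Comp were lower, and Fbn1 higher, in the clones where Adamts7, Adamts12 and Adamts2 were higher. A link between these changes was not tested. Of 15 ADAM sheddases and cathepsins, 1 was called higher, Ctsk (1.67, adjusted p = 0.0494), and none lower, a share close to the 6.88% of all tested probes called higher. In iHAC2-iPS against ES cells the calls in these 3 lists were Lrp1, higher, and Adam19, lower, and in iHAC-free lines there was none.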

How the data were processed

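RNA of 16 samples was hybridized to 1-colour (Cy3) Agilent arrays. The deposited scanner files hold spot intensities, background-subtracted by Feature Extraction 10.7.1.1 or 10.7.3.1 per the file headers. The authors' deposited table holds log2 values that matched the log2 scanner signal of every array with r = 1 and slope 1 (column medians -0.325 to 0.279, centring otherwise not given in the sources used here). Probe coordinates are those of mm9 in the files.

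Here, log2 of the processed signal minus the array's 75th percentile was averaged over spots of a probe. Of 41174 probes, 31415 were tested with limma 3.58.1 (R 4.3.3) in 1 fit of 6 groups, with Benjamini-Hochberg adjustment over all tested probes, and called at adjusted p under 0.05 and at least 2-fold. Arrays are single clones or lines, so p-values measure the spread between clones. The number of arrays limits the precision. A fold against a group not well above background is a bound, set by the higher of each dim array's lowest signal well above background and the probe's own signal. The fit was tested on simulated data.

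iHAC-free lines derive from iHAC2-iPS clones, so the clone of origin pairs them. Correlations of paired deviations were -0.07, -0.22, 0.03 and 0.08. The members and lists were chosen with earlier results of these data known. Named are genes called in any comparison, all Timp genes, Mmp2, Mmp3, Mmp9 and Mmp14, and the 5 largest MEF over ES and 3 largest ES over MEF differences among genes well above background in MEF or in both ES lines. Alternatives changed background correction, normalization, source of values, filters, slide or clone block, samples fitted and probes per gene, and left out each array.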

Additional observations from a re-analysis of the deposited data

Results flagged for a closer look

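Of 81 sets of 4 arrays examined over the named genes, 7 had an array far from the other 3 of its group, where about 1 in 20 sets, or 4.05 in all, would be picked by chance. In F-B1, Mmp19 was at a log2 level of -3.56 with the nearest other iHAC-free line at -2.91. Adamts1 was at -1.10 in the same line, the nearest being -0.53, and Mmp10 was at 0.41 with the nearest at 0.83. In 2-B1, Adamts18 was at -1.95 while the nearest other iHAC2-iPS clone was at -6.16, and it was the only clone of that group with Adamts18 well above background. Mmp9 was at -2.82 in 2-B1 with the nearest at -3.74, and Adamts16 was at -6.38 with the nearest at -6.84, none of the group being well above background. Adamts13, Mmp20 and Mmp21, at background on every array, were likewise highest of the group in 2-B1. They were at -6.46, -6.48 and -6.36 there, with the nearest at -6.58, -6.95 and -6.81. In F-C5, Adamts19 was at -6.63, not well above background, with the nearest iHAC-free line at -4.44. Among these lines F-B1 had the lowest mean of the fibroblast markers, at 1.74, and among the iHAC2-iPS clones 2-B1 had the highest, at 2.74. Their part in these values was not tested.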

How the results depend on the processing

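Of 605 alternative values for the 41 called probe and comparison pairs, 493 kept direction and call, 111 lost the call and 1 reversed, and 12 pairs were called under every alternative. The deposited values match the scanner signal, so the alternative that used them could change few calls. Under normexp background correction the number of called member probes was 7 for iHAC1-iPS against ES cells (15 as reported), 0 for iHAC2-iPS against ES cells (3), 5 for iHAC1-iPS against iHAC2-iPS (13), 5 for iHAC1-iPS against iHAC-free (9) and 0 for iHAC2-iPS against iHAC-free (1). Under it 18 rather than 34 probes were 2-fold higher in MEF, and the dim Adamts19 probe called lower in iHAC1-iPS than in iHAC-free lines reversed to 0.10. With a slide term iHAC2-iPS against iHAC-free gave 0 calls. For iHAC1-iPS against ES cells that term leaves 1-D6 alone, so no count is given. The iHAC-free lines and the ES lines share no slide. Slide entered their comparison only as a correlation between arrays (-0.12), and 2 member probes were called. Fitting no arrays but those compared gave 7 for iHAC1-iPS and 0 for iHAC2-iPS against ES cells, and again 0 calls against iHAC-free for the latter. The replicate block by clone of origin also gave 0 there, and the strict filter on dim probes 2. With no filter, iHAC2-iPS against ES cells gave 6. Leaving out 1 array at a time gave 7 to 13 for iHAC1-iPS, 0 to 6 for iHAC2-iPS and 0 to 0 for iHAC-free against ES cells. It gave 12 to 17 and 8 to 11 for iHAC1-iPS against iHAC2-iPS and iHAC-free, and 0 to 1 for iHAC2-iPS against iHAC-free. Shares of all tested probes under the alternatives are not given here. The counts therefore do not show whether the members still stood apart from all probes. The cause of these shifts was not tested. iHAC2-iPS arrays had the highest floors, and members dimmer than a group's floors have only a bound there.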
